A study of Rattus norvegicus with 10 samples.

Results

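miR-21 was followed spot by spot in collateral artery tissue of 5 male rats (strain given as Spraque-Dawley in the labels). Collateral arteries run alongside a main artery and widen to carry blood around it once it is blocked. In each rat, 1 leg received a femoral artery ligation together with an arteriovenous shunt, which raises fluid shear stress in the collaterals (the shunt group, n = 5), and a sham operation was done on the other leg (the control group, n = 5). The labels name no transgene or drug for either group and do not state the age or the time after surgery. The probe whose name is exactly rno-miR-21 is 1 of 1107 probes on a multi-species miRNA array, with 237 rat miRNA names among them, 93 of which were kept as above background. miR-21 was picked for study because of its shunt against control difference in these same arrays, so its levels in the groups are given as a description, without a test. The probe was printed as 3 spots per array, and every RNA was read on 2 arrays, which gives 60 spot readings in all.

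MicroRNAs are short RNAs that guide Argonaute proteins to partly complementary messenger RNAs, mainly through bases 2 to 8, the seed, and so lower their translation or stability. miR-21 is present in many cell types, including smooth muscle, endothelium, fibroblasts and leukocytes, and represses messenger RNAs such as those of Pdcd4 and Spry1. In arteries it is known for rising after wall injury and for promoting smooth muscle growth. The RNA here came from collateral tissue as a mix of cell types. A change in the level per cell and a change in the share of cells that hold miR-21 therefore cannot be told apart.

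By its name alone, since no probe sequence was used here, the older array name rno-miR-21 was matched to the 5p arm of the hairpin. The RefSeq sequences of both arms (build GRCr8) are shown because the seed defines what the miRNA pairs with. Capitals mark bases 2 to 8.
rno-miR-21-5p: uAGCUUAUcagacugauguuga
rno-miR-21-3p: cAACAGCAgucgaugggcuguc

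The 5p arm lies at chr10:71902653-71902674 on the minus strand of GRCr8. It occupies bases 18 to 39 of the 92-base hairpin of Mir21, in which capitals mark the 5p arm.
Mir21 hairpin: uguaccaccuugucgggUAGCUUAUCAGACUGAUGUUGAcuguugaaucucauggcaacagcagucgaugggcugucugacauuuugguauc

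The hairpin overlaps no other gene in the RefSeq annotation, and its nearest neighbour there is the protein-coding gene Vmp1. The array holds no other probe named for miR-21, neither for the 3p arm nor for another species. Among the 690 other rat mature sequences compared, 0 share bases 2 to 8 with miR-21-5p. Sequences outside this set, such as those of other species on the array, were not compared. The most equal positions at any ungapped offset were 14 of 22, found in 2 sequences, and the longest unbroken run of shared bases was 9, in miR-541-5p. These 3 are shown with the longest run shared with miR-21-5p in capitals.
rno-miR-101a-5p: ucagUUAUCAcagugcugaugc
rno-miR-27b-5p: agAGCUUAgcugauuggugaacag
rno-miR-541-5p: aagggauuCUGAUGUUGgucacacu

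The 10 arrays were read in 2 colours and formed a closed loop, so that each RNA was read once in the dye AF665 and once in the dye AF546. Of these, 4 arrays carried control RNAs only, 4 carried shunt RNAs only and 2 carried 1 RNA of each group. The arrays themselves differed between groups: the number of spots left unflagged by the image software, of 3321, was 1048 to 1335 on control arrays, 1659 to 2379 on shunt arrays and 927 to 1834 on those with both. Averaged over its 2 readings, a control RNA had 36.5 to 84.5 rat miRNAs above background and a shunt RNA 72.5 to 102. The part of this array-wide difference in the values of miR-21 was not tested.

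The raw readings of miR-21 were dim in control tissue and brighter in most shunt tissue. A spot was counted as above background when its mean foreground intensity exceeded the median local background by more than 2 SD of that background. By this rule 0 of 30 control readings and 25 of 30 shunt readings were above background. The net intensity, foreground minus background, ran from 2 to 40 with a median of 8 in control readings, and from -1 to 155 with a median of 45.5 in shunt readings. The ranges of single spots thus overlapped, although their medians were far apart. The signal-to-noise score of the image software had a median of 0.46 in control readings (highest 1.65) and 3.63 in shunt readings (highest 15.8). The share of a spot's pixels more than 2 SD over background had a median of 12.5% in control and 75.5% in shunt readings. The image software flagged 9 of the 12 miR-21 spots on control arrays, 0 of the 12 on shunt arrays and 1 of the 6 on the mixed arrays; what the flag stands for is not stated in the files.

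**Figure D1:**
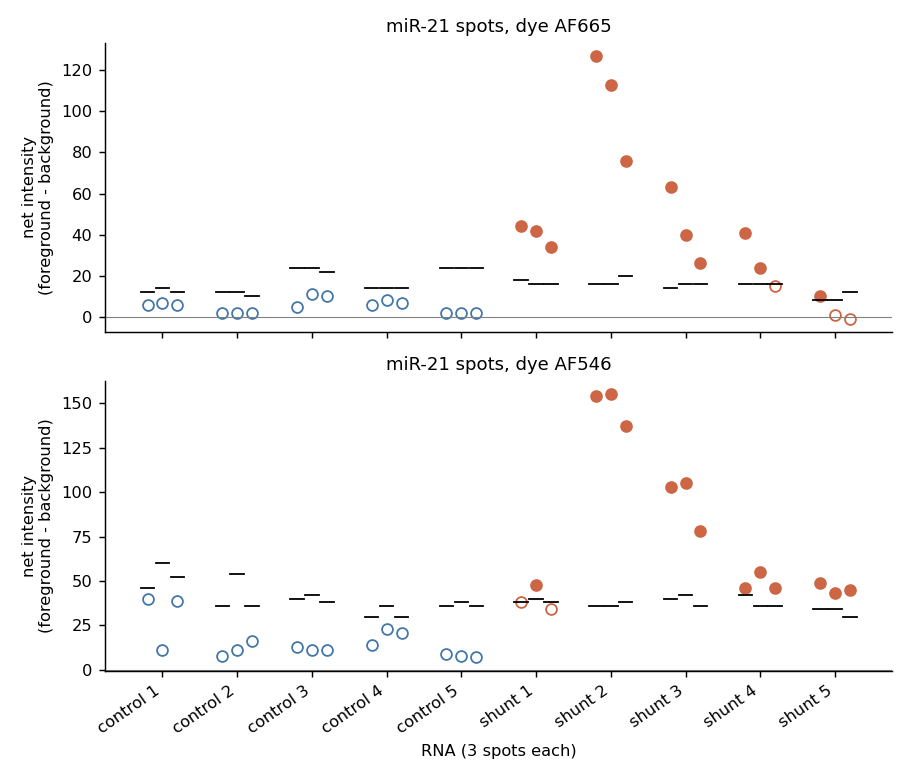
Net intensity (mean foreground minus median local background, scanner units) of each miR-21 spot, in AF665 in the upper panel and in AF546 in the lower, for the 5 control RNAs (blue) and the 5 shunt RNAs (orange). Short black lines mark 2 SD of that spot's local background and filled circles are readings above it; 0 of 30 control and 25 of 30 shunt readings are filled.

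In the control legs, the mean net intensity of the 3 spots in AF665 was 6.33 in control 1, 2 in control 2, 8.67 in control 3, 7 in control 4 and 2 in control 5. At AF546 it was 30, 11.7, 11.7, 19.3 and 8 in the same order. Each of these 10 readings failed the background rule, so the control level is known only as a bound. The brightest control reading, control 1 in AF546 with spots of 40, 11 and 39, came from an array whose local background at those spots had an SD of 23 to 30.

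In the shunt legs, the mean net intensity in AF665 was 40 in shunt 1, 105.3 in shunt 2, 43 in shunt 3, 26.7 in shunt 4 and 3.33 in shunt 5. At AF546 it was 40, 149, 95.3, 49 and 45.7 in the same order. Shunt 2 was brightest and shunt 3 next in both dyes, and the order of the other three differed between the dyes. A reading with at least 2 of 3 spots above background was counted as detected, which held for 8 of 10 shunt readings. Both exceptions lay on the arrays shared with a control RNA: shunt 1 in AF546 had 1 of 3 spots above background (38, 48 and 34), and shunt 5 in AF665 had 1 of 3 (10, 1 and -1). Each of those RNAs was detected on its other array, with spots of 44, 42 and 34 for shunt 1 and of 49, 43 and 45 for shunt 5.

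After background correction and normalization, the log2 level of miR-21 per RNA, the mean of both dyes, was 6.02, 5.94, 5.94, 6.07 and 5.92 in control 1 to control 5. It was 6.51, 6.83, 6.74, 6.50 and 6.19 in shunt 1 to shunt 5. The groups did not overlap, with 0.13 log2 between the lowest shunt RNA (shunt 5) and the highest control RNA (control 4). The means were 5.98 ± 0.061 in control and 6.55 ± 0.25 in shunt RNAs (SD, n = 5 each), a fitted difference of 0.58 log2 (SE 0.11). As the control readings were not well above background, they were also raised, per array and dye, to the lowest level of any probe above background. Against these raised readings, the mean of the shunt RNAs was 1.23-fold that of the control RNAs, with no sampling error attached. This is not a strict lower bound. The background limit at the miR-21 spots may lie higher, and only 8 of 10 shunt readings were detected. The offset used in the background correction puts a floor of 5.64 under the corrected intensities and so compresses differences of a dim probe such as this. The floor applies before normalization, which then shifts the levels, so it is not an exact floor of the levels given here.

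**Figure D2:**
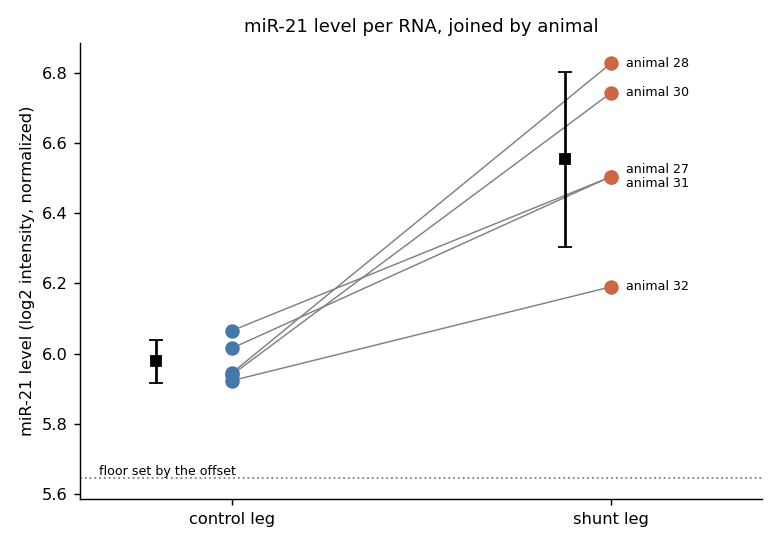
Normalized log2 intensity of miR-21 in the control leg (blue) and the shunt leg (orange) of each animal, joined by a line. Squares with bars are the group mean ± SD (n = 5), and every line rises, least in animal 32. The dotted line is the floor of 5.64 that the offset sets before normalization.

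The shunt RNAs ranked, from high to low, shunt 2, shunt 3, shunt 1, shunt 4 and shunt 5, followed by the controls. The readings of 1 RNA in its 2 dyes differed with an SD of 0.14 log2, which exceeds the steps between shunt 2 and shunt 3, between shunt 1 and shunt 4, between shunt 5 and control 4, and between neighbouring controls. The steps from shunt 3 to shunt 1 and from shunt 4 to shunt 5 were larger than that. This SD is between single readings, while each level is a mean of 2, so it is a wide yardstick for the steps. The SD among shunt RNAs was 4.11 times that among control RNAs, while the median of this ratio over the 93 kept miRNAs was 0.66. This ratio was not tested, and the control values behind it are readings not above background.

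Both legs of an animal could be compared directly, since the sample names tie the RNAs with the same number to 1 rat. The shunt leg was higher than the control leg by 0.49 log2 in animal 27, 0.88 in animal 28, 0.81 in animal 30, 0.44 in animal 31 and 0.27 in animal 32. The shunt leg was higher in 5 of 5 animals, as any pairing must give when the groups do not overlap. It was also higher in 5 of 5 with the AF665 readings alone and in 5 of 5 with the AF546 readings alone. As miR-21 was picked on this contrast, these counts are descriptions only. In animal 32 the AF665 readings differed by only 0.037 log2 and the AF546 readings by 0.50. The SE of the mean difference was 0.12 with the animal as a block.

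Only 2 arrays set a shunt RNA beside a control RNA on the same surface. On the array of control 5 (AF665) and shunt 1 (AF546), shunt 1 was higher by 0.42, 0.57 and 0.36 log2 in the 3 spots, with a mean of 0.45 (SD over spots 0.11). On the array of shunt 5 (AF665) and control 1 (AF546), shunt 5 differed from control 1 by 0.45, 0.10 and -0.032, with a mean of 0.17 (SD over spots 0.25). The first array therefore showed the difference in each spot, and the second did not beyond the spread of its spots. Before normalization, control 1 was brighter than shunt 5 in all 3 spots of the second array (net 40, 11 and 39 in AF546 against 10, 1 and -1 in AF665), in opposite dyes. The mean over both arrays was 0.31 log2, against 0.58 over all 10 arrays, in which most shunt and control readings come from different surfaces.

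**Figure D3:**
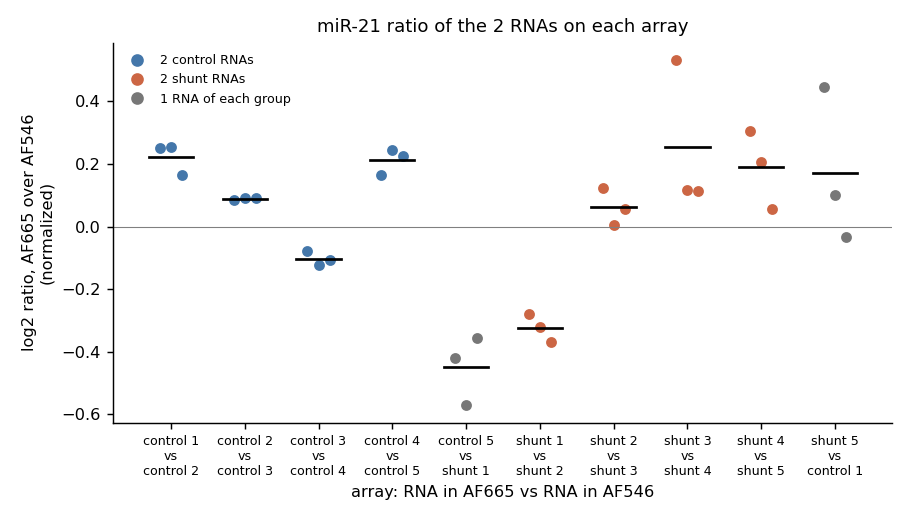
Normalized log2 ratio of miR-21, AF665 over AF546, in the 3 spots (points) of each of the 10 arrays, with the mean as a bar. Blue arrays hold control RNAs only, orange arrays shunt RNAs only and grey arrays 1 of each; the array of control 5 and shunt 1 has the lowest mean, at -0.45.

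Within the groups, the arrays also showed ratios away from 0. Among control arrays the mean ratio ran from -0.10 (control 3 over control 4) to 0.22 (control 1 over control 2). Among shunt arrays it ran from -0.32 (shunt 1 over shunt 2) to 0.25 (shunt 3 over shunt 4), and the latter rested on 1 spot at 0.53 beside others at 0.12 and 0.11. Levels were also solved from these normalized ratios alone, although the offset and the loess step act on the ratios by brightness. Relative to the mean of all, they were 0.11, 0.46, 0.43, 0.21 and 0.053 in shunt 1 to shunt 5. In control 1 to control 5 they were -0.086, -0.28, -0.33, -0.20 and -0.38. The groups again did not overlap, and the difference by ratios was 0.51 log2. The ratios link the groups only through the 2 mixed arrays, with means of 0.45 and 0.17.

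The dyes were compared within each RNA, a contrast that played no part in choosing miR-21. After normalization the AF665 reading exceeded the AF546 reading by 0.032 log2 on average (SD 0.14, n = 10), with 7 of 10 RNAs higher in AF665 (two-sided exact permutation p = 0.479). The loess step had already set dye ratios towards 0 on each array, so this test cannot show that the dyes read alike. The single RNAs ran from -0.26 in shunt 5 to 0.25 in control 1, the RNAs that shared an array. Their means were 0.11 ± 0.12 in control and -0.046 ± 0.13 in shunt RNAs (SD, n = 5 each). In raw net intensity the order was the other way, with AF665 minus AF546 at -1.70 on the log2 scale (two-sided exact permutation p = 0.00586). Neighbouring RNAs share an array, so the 10 differences behind each p-value are not fully independent. The difference between groups was 0.50 log2 in AF665 alone and 0.66 in AF546 alone.

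The 3 spots of the probe were printed in blocks 7, 15 and 23 and are called spots 1, 2 and 3 here. Their SD within an array and dye had a median of 0.036 log2 in control and 0.12 in shunt readings, against 0.071 and 0.17 for the other kept miRNAs. In the shunt RNAs spot 1 read above spot 3 in 10 of 10 readings, by a median of 0.21 log2, while in the control RNAs this held in 3 of 10, with a median of -0.025. Other kept miRNAs also read higher in spot 1 in shunt readings. Their median difference between spot 1 and spot 3 was 0.29 in shunt and 0.026 in control readings. On 1 mixed array it was 0.55 in shunt 5 (AF665) and 0.28 in control 1 (AF546). On the other it was -0.066 in shunt 1 (AF546) and -0.033 in control 5 (AF665). The size of the shunt minus control difference of miR-21 depended on the spot, with 0.71 from spot 1 alone, 0.59 from spot 2 and 0.43 from spot 3. Whether the array surface has a part in this was not tested.

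The authors' deposited table of values per spot, centred near 0 for each row, gave the same order of the groups. In the authors' deposited table, the mean of the 3 spots was 0.22, 0.99, 0.49, 0.099 and -0.15 in shunt 1 to shunt 5 and -0.30, -0.30, -0.39, -0.32 and -0.34 in control 1 to control 5, on the log2 scale. In the authors' deposited table the groups were 0.15 apart at their nearest. Within animals, the shunt spot in the authors' deposited table was above the control spot in 15 of 15 pairs. The pairs are 3 repeat readings in each of 5 animals, not replicates, and miR-21 was picked on this contrast. The deposited means of the 3 spots and the levels computed here correlated over the 10 RNAs with r = 0.95 (Spearman's rho 0.95). Both come from the same scans, so this describes the processing only. In the authors' deposited table of comparisons, the shunt leg exceeded the control leg in miR-21 by 1.43-fold in animal 27, 2.45-fold in animal 28, 1.83-fold in animal 30, 1.33-fold in animal 31 and 1.14-fold in animal 32. The p-values in the authors' deposited table, from a test that is not stated, were 0.296, 0.00989, 0.0570, 0.418 and 0.938 in that order. These folds restate the differences between the legs in the deposited means of the 3 spots. Those were 0.52, 1.29, 0.87, 0.42 and 0.19 log2 in the same order of animals. The folds are therefore not a further set of values. The fold was largest in animal 28 and smallest in animal 32, as was the difference in the levels computed here from the same scans.

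Across the 93 kept miRNAs, the limma fit with Benjamini-Hochberg adjustment called 1 as higher in shunt RNAs (1.08%) and 0 as lower (0%), with 18 at an unadjusted p under 0.05. The 1 called was miR-21, which had been picked on this contrast, so nothing further is read from the call; with the animal as a replicate block the count was 0, with 13 at an unadjusted p under 0.05. For 5 of 93 miRNAs (5.38%) the groups had no overlapping values, and miR-21 was 1 of these. As a whole the kept miRNAs had a median difference of 0.12 log2, with 67 higher and 26 lower. A miRNA was kept when either group reached the background share, and shunt RNAs held more miRNAs above background. miR-21 itself was kept through its shunt readings alone. The part of this filter in the 67 higher and 26 lower was not tested. The p-values of the limma fit may be too small. It takes the RNAs as independent although each shares its arrays with its neighbours in the loop.

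The kept miRNAs whose levels followed miR-21 most closely over the 10 RNAs were miR-191, miR-151*, miR-15b, miR-25, miR-100 and miR-28, with Pearson's r of 0.97, 0.93, 0.93, 0.91, 0.88 and 0.88. After the mean of each group was taken off, r was 0.91, 0.95, 0.76, 0.93, 0.84 and 0.55 in the same order. The median r over the 92 other kept miRNAs was 0.42, with 70 above 0 and the lowest at -0.86. All levels of an RNA share its arrays, dyes and spot positions, and the shunt RNAs held more miRNAs above background, so these correlations are descriptions over 10 points. These miRNAs were picked by their likeness to miR-21, which was itself picked on its group difference. A similar order over the RNAs and a group difference in the same direction therefore follow largely from the choice. Their limma p-values below are descriptions only. miR-191 had levels of 6.44, 6.30, 6.15, 6.54 and 6.41 in control 1 to control 5 and of 6.81, 7.23, 7.24, 6.98 and 6.56 in shunt 1 to shunt 5. Like miR-21 it was highest in shunt 2 and shunt 3 and lowest, among shunt RNAs, in shunt 5, and it was above background in 5 of 10 control and 9 of 10 shunt readings. The fitted difference between groups was 0.60 log2 for miR-191 (SE 0.14, limma adjusted p = 0.0540), 0.34 for miR-15b (SE 0.090, limma adjusted p = 0.0754) and 0.30 for miR-28 (SE 0.080, limma adjusted p = 0.0754), none past the threshold of 0.05. miR-151*, miR-25 and miR-100 were above background in 0 of 10 control readings, as miR-21 was, so their control levels are also readings not above background.

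**Figure D4:**
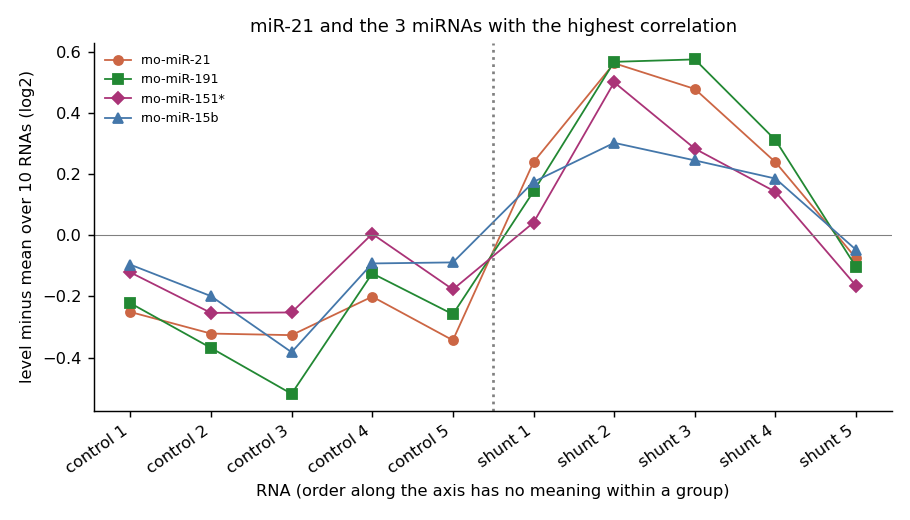
Log2 level of miR-21, miR-191, miR-151* and miR-15b in each RNA, after subtracting each miRNA's mean over the 10 RNAs. All 4 are highest in shunt 2 or shunt 3 and, among shunt RNAs, lowest in shunt 5. The other miRNAs were picked by their correlation with miR-21, so a similar shape follows from the choice. Points are joined only to guide the eye.

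The mature sequences of miR-191 and miR-15b, from RefSeq (GRCr8), are shown beside miR-21-5p to compare seeds, again in capitals.
rno-miR-21-5p: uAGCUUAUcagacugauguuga
rno-miR-191a-5p: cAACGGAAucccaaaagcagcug
rno-miR-15b-5p: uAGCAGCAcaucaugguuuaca

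Neither has the seed of miR-21. At the best ungapped offset, miR-191a-5p matched miR-21-5p at 7 positions and miR-15b-5p at 11, and the longest shared run was 4 bases in each.

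Other miRNAs known from injured arteries were read beside all 93 kept miRNAs, of which 67 were higher in shunt RNAs, 26 lower and 1 past the test, with a median of 0.12 log2. Besides miR-21, 9 of the 10 members of the injured artery list on the array were kept, of which 7 were higher, 2 lower and 0 past the test, with a median of 0.15, close to that background. miR-221 and miR-222, a pair that promotes smooth muscle proliferation, differed by 0.21 (SE 0.065, limma adjusted p = 0.106) and 0.15 (SE 0.076, limma adjusted p = 0.266). miR-146, known as a brake on inflammatory signalling, differed by 0.47 (SE 0.18, limma adjusted p = 0.195) and was higher in 4 of 5 animals. miR-214 differed by 0.30, miR-125a by 0.25 and miR-133a by 0.087. Of the pair that maintains the contractile state of smooth muscle, miR-143 differed by 0.046 (SE 0.26) and miR-145 by -0.26 (SE 0.11, limma adjusted p = 0.235), and miR-125b differed by -0.060.

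In the list of miRNAs that respond to shear in endothelium, 6 members besides miR-21 were kept, 3 higher and 3 lower, with a median of 0.014 log2, and 0 passed, beside 67 of 93 higher, a median of 0.12 and 1 of 93 past the test over all kept miRNAs. miR-126, the main endothelial miRNA, differed by -0.0070 (SE 0.14). miR-10a, which restrains inflammatory activation of endothelium, differed by 0.15, miR-23b by 0.035 and miR-27b by -0.028. In the fibrosis list, 6 members besides miR-21 were kept, 3 higher and 3 lower, with a median of 0.036, and 0 passed, against the same background of 67 higher and 1 past the test of 93. miR-29a, which represses collagen messenger RNAs, had the difference of largest size in that list, at -0.38 (SE 0.11, limma adjusted p = 0.0870), in the opposite direction to miR-21. miR-30a-5p differed by -0.22, miR-30c by -0.015 and miR-199a by 0.12.

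Markers of the cell types that the tissue could hold were read in the same RNAs, as the number of readings above background and the mean log2 level of each list. Smooth muscle markers (miR-143 and miR-145) were above background in 18 of 20 control and 19 of 20 shunt readings, with list levels of 7.36 to 8.12 and 7.43 to 8.08, so the defining miRNAs of vessel wall muscle were present. The endothelial miR-126 was above background in 10 of 10 readings of each group, and its partner arm miR-126* in 0 of 10 of each, with list levels of 6.64 to 6.95 in control and 6.66 to 6.89 in shunt RNAs. Leukocyte markers were above background in 12 of 40 readings in each group, with list levels of 6.08 to 6.25 in control and 6.12 to 6.19 in shunt RNAs; miR-150 alone made up 10 of the control and 9 of the shunt readings, miR-223 had 1 in each group, miR-142-3p had 1 and 2, and miR-142-5p was at 0 of 10 in both. The red cell markers miR-144 and miR-451 were above background in 0 of 20 readings in both groups, with list levels of 5.81 to 6.05 and 5.81 to 5.89. Nerve markers were above background in 0 of 20 control and 2 of 20 shunt readings, with list levels of 5.84 to 5.98 and 5.91 to 6.05. All 4 striated muscle markers (miR-1, miR-133a, miR-133b and miR-206) were kept and 0 passed the test. They were above background in 26 of 40 control and 36 of 40 shunt readings, with list levels of 6.41 to 6.93 and 6.71 to 7.38, a mean difference of 0.28 beside the median of 0.12 over all 93. Their levels over the 10 RNAs correlated with miR-21 by r = 0.70 for miR-1, 0.45 for miR-133a, 0.80 for miR-133b and 0.50 for miR-206, beside the median of 0.42 over the other kept miRNAs. Their part in the difference of miR-21 was not tested.

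The size of the miR-21 difference was recomputed under 26 other settings, and it was above 0 in 26 of 26. With 1 RNA left out at a time it ran from 0.51 (without shunt 2) to 0.67 (without shunt 5). An offset of 0 in the background correction, which removes the floor, raised it to 1.71 log2, 0.76 was found with no normalization between arrays, and 0.31 on the 2 mixed arrays. The direction of a difference between groups that do not overlap is fixed by the choice of miR-21 and does not measure stability.

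**Figure D5:**
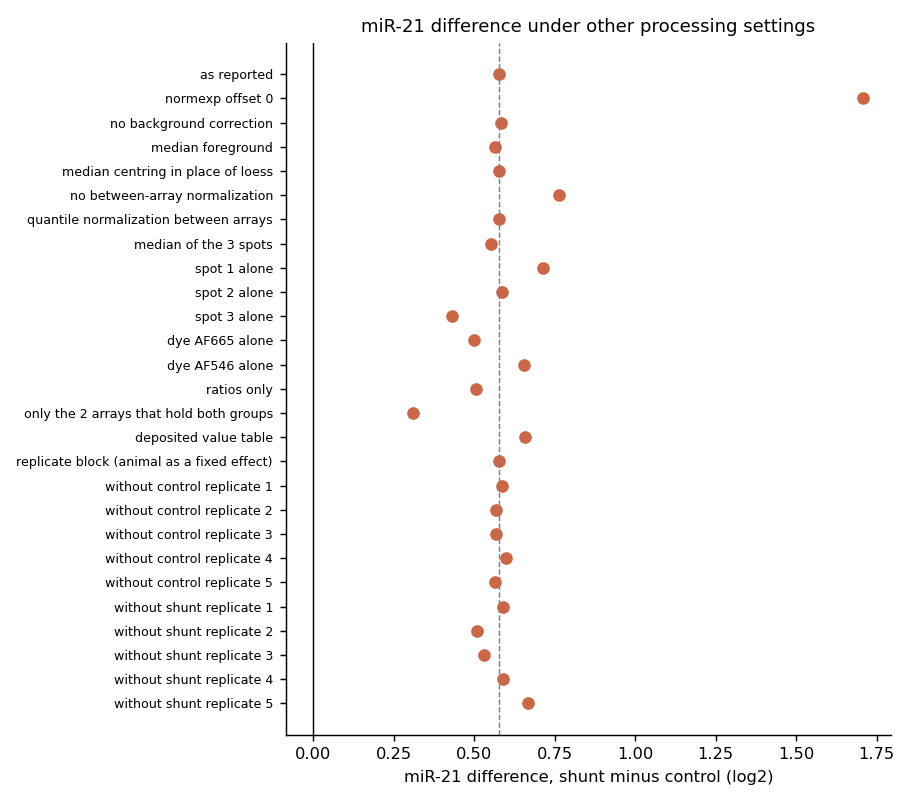
Difference of miR-21, shunt minus control (log2), as reported and under 26 other processing settings, 1 point each. The dashed line is the reported 0.58 and the solid line is 0; the values run from 0.31 on the 2 mixed arrays to 1.71 with an offset of 0.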

How the data were processed

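Per the labels' protocols, total RNA was labelled directly with 2 dyes and put on a miRNA array. Foreground and local background intensity per spot, the percent of pixels over background and the signal-to-noise score are deposited as scanned, per the file headers; the labels and headers do not name the image software. The authors also deposited a value table on a log2 scale, centred near 0 by rows and columns, and a signed fold (score) with a p-value per animal; no label or header states how these were normalized or tested.

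From the scans, mean foreground and median background were corrected with normexp (offset 50), loess (span 0.3, 4 iterations) and Aquantile in limma 3.58.1 (R 4.3.3), with all spots kept whatever their flag. The 3 spots and then the 2 dyes were averaged. Rat miRNAs above background (at least 2 of 3 spots) in a share of 0.5 or more of 1 group's readings were kept. lmFit and eBayes compared the groups, with a threshold of 0.05 after adjustment. The steps were run on simulated data with larger changes than that of miR-21 and a lower limit on signal. The simulation had no array-wide difference between the groups, so it does not show how the steps treat a case such as miR-21. The number of arrays limits the precision. The bound sets the shunt mean against control readings raised, per array and dye, to the lowest signal above background. Alternatives are in the closing section.

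miR-21, the lists (injured artery, shear-responsive endothelium, fibrosis, cell type markers) and the rule for named miRNAs (the 6 most correlated, any with the same seed, and kept list members) were chosen with earlier results of these data known. Deviations of the paired legs from their group means correlated by -0.418, 0.00519, -0.189, -0.0468 and 0.337 in animals 27, 28, 30, 31 and 32; the pairing comes from the sample names. RNA pairs correlated by 0.848 to 0.988 over the kept miRNAs.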

Additional observations from a re-analysis of the deposited data

Results flagged for a closer look

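Of 64 groups of 5 values tested for an RNA far from the rest, 1 had such a sample, where chance alone gives about 5%. miR-25, one of the miRNAs that followed miR-21, read 6.07 log2 in control 4, while the remaining 4 control RNAs lay at 5.96 ± 0.0052 (SD, n = 4). This gap made up 0.91 of the whole control range, and miR-25 was above background in 0 of 10 control readings.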

How the results depend on the processing

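The miR-21 difference (0.58 log2) became 1.71 with an offset of 0, 0.76 with no between-array normalization and 0.31 on the 2 mixed arrays, and ran from 0.51 to 0.67 with 1 RNA left out. The replicate block of the animal left it at 0.58. The count of 1 miRNA past the threshold became 0 with the replicate block (smallest adjusted p 0.126), median centring in place of loess, no between-array normalization, the AF665 dye alone, the deposited value table, and above background in all channels (19 tested, without miR-21). It became 2 with an offset of 0, the median foreground, quantile normalization or the AF546 dye alone, and 3 with no background correction, the median of the 3 spots, ratios only or no filter on dim probes (237 tested). It ran from 0 to 25 with 1 RNA left out: 25 without control 4, 2 without control 3, 3 without shunt 5 and 0 without each other RNA. The dye difference (0.032) turned to -0.043 with median centring and to -1.70 in raw net signal, and was 0.32 with an offset of 0 (exact permutation p = 0.152). The mean SD of the 3 spots (0.099) became 0.36 with an offset of 0. Apart from the smaller sets tested, the cause was not tested. Control readings of miR-21 at or near background limit every value.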
